A study of Drosophila melanogaster with 26 samples.

Results

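Ecdysone is the steroid hormone of the fly, and 10 genes of its synthesis and response were followed in ovaries depleted of a subunit of the non-specific lethal (NSL) complex, a chromatin regulator with histone acetyltransferase activity. The 10 genes were picked by name, with earlier results of these data known, and are 10 of the 15341 annotated genes in each table. They are *phm*, *dib*, *sad* and *shd* (enzymes that make the hormone), *EcR* and *usp* (the receptor), *Eip74EF* and *Eip75B* (early response genes), and *ftz-f1* and *Hr39* (nuclear receptors of the hormone cascade). All 10 were found and all 10 passed the minimum mean of 10 normalized reads in every comparison.

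RNA was sequenced from whole ovaries of 4 groups with 3 libraries each. The hairpins were aimed at *white* (the control, Bloomington stock number 35573), *nsl1* (stock 58328), *nsl2* (stock 58162) and *nsl3*, for which the labels give Vienna stock 108002 and the study's methods name another line. The groups share the *nanos*-GAL4 driver and, per the methods, a UAS-Dcr-2 transgene and a *white* mutation that the driver stock carries. The *nsl1* and *nsl2* hairpin stocks carry *yellow* and *vermilion* mutations, and the control hairpin stock carries these and a *scute* mutation. F1 females had been fed yeast for 3 to 5 days, and neither their age nor any further treatment is given. Each group rests on 1 hairpin line. By column name the control is the nonvirgin one in every comparison. The study names virgin *white* RNAi ovaries as the control for NSL1 and NSL3 RNAi. The driver works in the germline only, so the follicle cells and other somatic cells of these ovaries lack the hairpin. The study describes NSL1 and NSL3 RNAi ovaries as atrophied and NSL2 RNAi ovaries as normal in form, and it pools several animals in each replicate.

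In insects, cholesterol from food is turned into ecdysone by a chain of enzymes encoded by the Halloween genes, and *shd* encodes the last of them, which makes the active hormone. The hormone binds a dimer of the EcR and Ultraspiracle proteins, which then switches on early genes, mostly transcription factors, that pass the signal to later targets. In the adult ovary the hormone is made in egg chambers and acts on germline stem cells, on the follicle cells and on the passage of egg chambers through mid-oogenesis.

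Assigned reads per library were 20820820 to 23021900 in the control. They were 14507550 to 16699905 after NSL1, 14868717 to 20911687 after NSL2 and 12482452 to 15127028 after NSL3 depletion. The targeted transcripts were below the control without passing the fold threshold used here. *wah*, which is *nsl1*, had a log2 difference from control (log2FC) of -0.88 (SE 0.06) in NSL1 RNAi. The value was -0.54 (SE 0.09) for *dgt1*, which is *nsl2*, in NSL2 RNAi and -0.92 (SE 0.11) for *Rcd1*, which is *nsl3*, in NSL3 ovaries. These transcripts were also below the control in the knockdowns aimed at another subunit. *dgt1* averaged 1515 normalized reads in *white*, 694 in NSL1, 990 in NSL2 and 806 in NSL3 ovaries, so that it was not lowest where it was targeted. The averages in the same order were 4811, 2865, 3730 and 2614 for *Rcd1* and 6020, 3430, 5079 and 4246 for *wah*. The marker lists of ovary and body cell types moved with the groups. Of 10 nurse cell and oocyte markers, 8 fell in NSL1, 0 in NSL2 and 7 in NSL3 ovaries, and their summed level was 133782 to 136819 normalized reads in *white*, 30636 to 36181 in NSL1, 102942 to 117900 in NSL2 and 29121 to 80290 in NSL3 ovaries. Of the follicle cell and ovarian soma markers, 7 of 8 tested rose in NSL1, 3 of 7 in NSL2 and 4 of 7 in NSL3 ovaries, with sums of 4625 to 5340, 22942 to 25055, 5087 to 6508 and 13772 to 21670 in the same order of groups. Eggshell and yolk markers rose in 7, 10 and 5 of 10 cases, with sums of 12020 to 47513, 107654 to 160259, 207323 to 416572 and 88744 to 122315. Muscle markers rose in 7, 1 and 7 of 7 cases, and their sums were 1718 to 2360, 177317 to 229647, 2237 to 3412 and 188249 to 415666. Hemocyte markers rose in 5 of 5, 1 of 3 and 6 of 6 tested, fat body markers in 5 of 5, 1 of 2 and 3 of 3, and neuronal markers in 3 of 3, 0 of 1 and 3 of 3. Several of these markers had control means near 0 and passed the minimum mean of 10 only where the knockdown level was high. A rise was then the only call open to them, so these counts were fixed in part by the filter. Hemocyte markers summed to 276 to 473 in *white*, 31011 to 42046 in NSL1, 745 to 1022 in NSL2 and 48704 to 113036 in NSL3 ovaries. For fat body markers the sums were 1025 to 1626, 13021 to 27883, 1015 to 2861 and 6061 to 17365, and for neuronal markers 47.7 to 54.4, 810 to 870, 60.8 to 85.8 and 908 to 1796. No marker was at 0 in every library of a group except the hemocyte gene *He* in *white* RNAi. On these lists 3 libraries stood apart. *white* RNAi replicate 3 had the highest eggshell and yolk sum of its group, NSL2 RNAi replicate 2 had the highest of all 12 libraries, and NSL3 RNAi replicate 2 had the highest germline sum of its group.

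**Figure D1:**
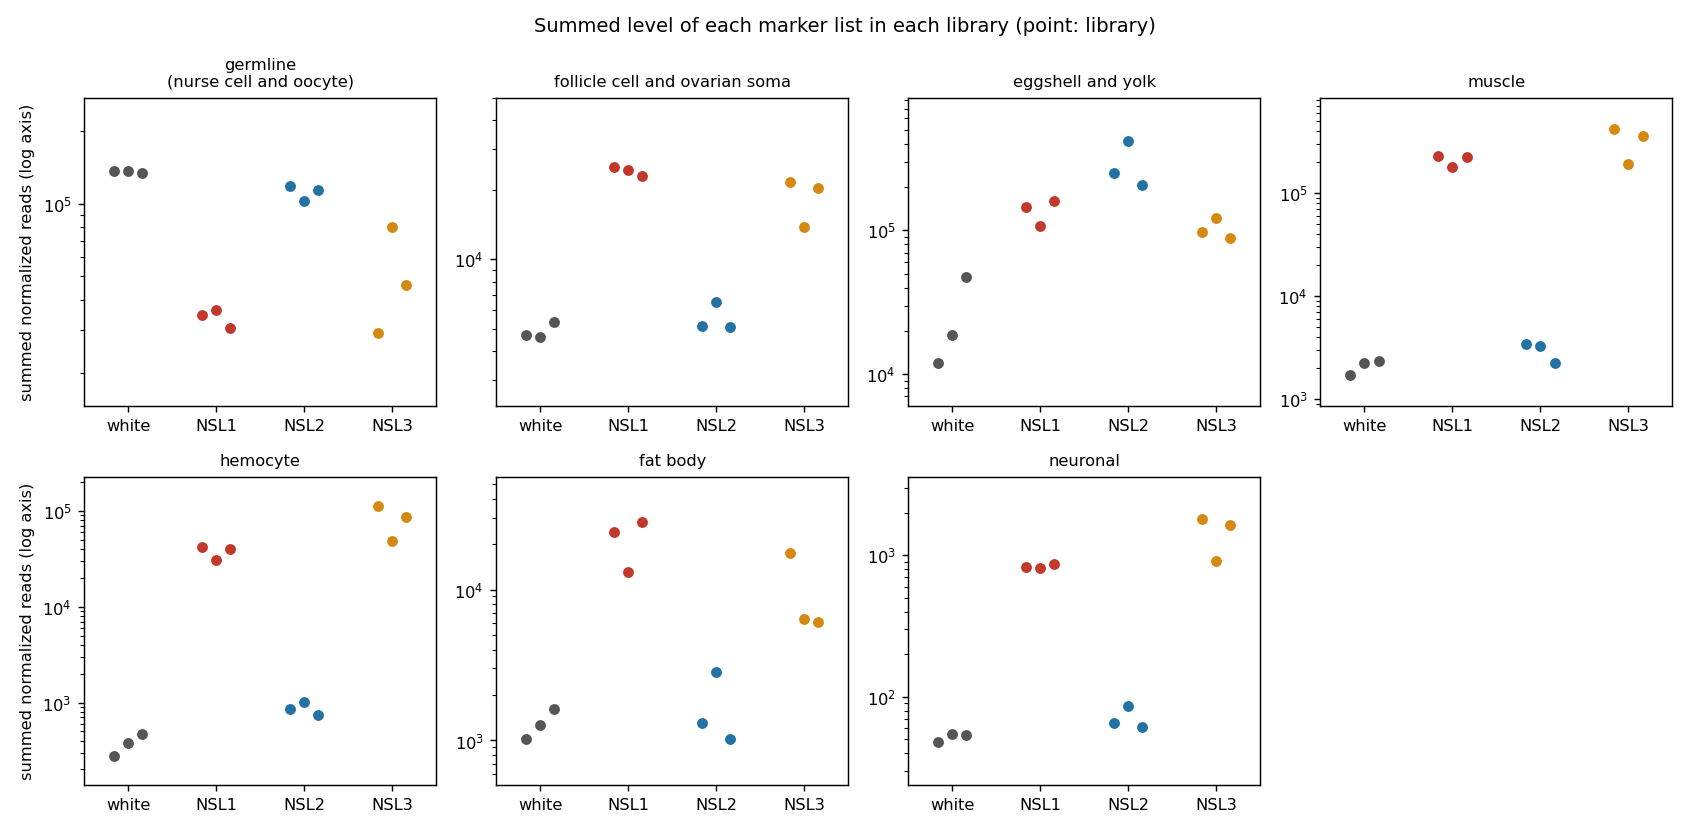
Summed normalized reads of each marker list (log axis) in each of the 12 libraries, by RNAi group, 1 point per library. The germline sums of *white* RNAi, 133782 to 136819, lie above all others, and the muscle sums of NSL1 and NSL3 RNAi, 177317 to 415666, lie above those of *white* and NSL2 RNAi.

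Against this background both the ecdysone genes and all genes tested were called most often in NSL1 RNAi. There 5 of the 10 rose (*phm*, *shd*, *Eip75B*, *Eip74EF* and *sad*) and 3 fell (*usp*, *Hr39* and *ftz-f1*), where 31.8% of all genes tested rose and 20.4% fell. In NSL2 RNAi 4 rose (*shd*, *Eip74EF*, *sad* and *dib*) and 0 fell, against 8.46% and 1.17% of all genes. In NSL3 RNAi 4 rose (*Eip74EF*, *Eip75B*, *shd* and *phm*) and 0 fell, against 29.6% and 14.6% of all genes. The 4 rises after NSL2 depletion thus stood beside a far smaller share of all genes than the 4 after NSL3 depletion. Without NSL2 replicate 2 the count in NSL2 RNAi was 2 (*Eip74EF* and *sad*). Without *white* replicate 3 the counts were 8, 4 and 5 in the order NSL1, NSL2 and NSL3, and without NSL3 replicate 2 the NSL3 count was 5. *Eip74EF* and *shd* rose in all 3 knockdowns, which share the same control libraries. The median log2FC of the 10 genes was 1.34, 0.60 and 0.64, and that of all genes -0.13, -0.04 and -0.12. A gene was called higher or lower when limma gave a Benjamini-Hochberg adjusted p under 0.05 over all features tested and a fold above 2 in either direction. In whole ovaries, fewer cells of a type and less RNA per cell cannot be told apart, and this holds for every level below.

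**Figure D2:**
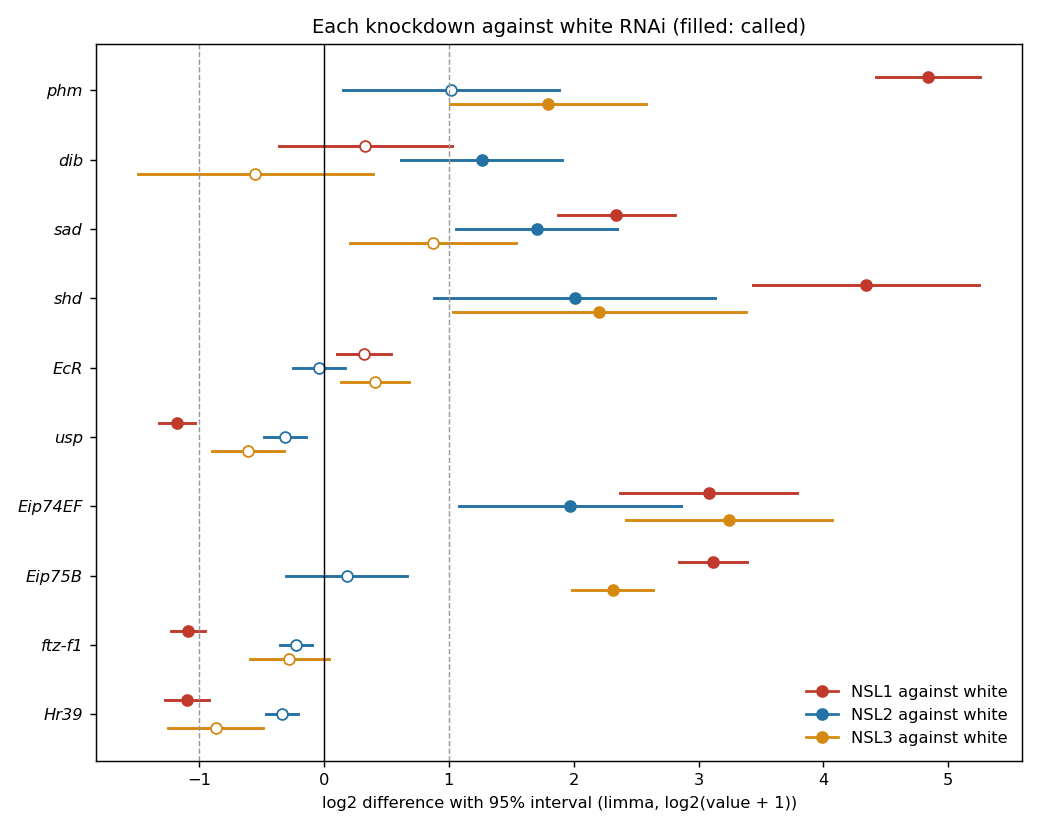
Log2 difference of each gene from *white* RNAi (limma on log2(value + 1), 3 against 3 libraries) with its 95% interval, for the 3 knockdowns, with filled points for called genes and dashed lines at the fold threshold. *phm* in NSL1 RNAi reaches 4.84, *Eip74EF* and *shd* are filled in all 3, and *usp*, *ftz-f1* and *Hr39* are filled on the left for NSL1 RNAi only.

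The enzymes of the hormone had few reads in control ovaries. Levels in this section are reads divided by 1 size factor per library, set over all 12 libraries. They are not divided by transcript length and are compared within a gene only. The log2FC and the ratios against the control come from each table's own size factors, which differ slightly from this scale. *phm* (phantom) encodes an enzyme of the middle of the synthesis chain. Its level was 12.3, 12.3 and 15.8 normalized reads in the *white* RNAi libraries, 469, 431 and 389 in NSL1, 16.1, 42.5 and 27.4 in NSL2, and 55.2, 33.1 and 69.4 in NSL3 ovaries. Every NSL1 library was thus far above all the others, and NSL3 RNAi also lay above the control without overlap. The log2FC of *phm* in NSL1 RNAi was 4.84 (SE 0.18, limma adjusted p = 4.49e-08), a ratio of means of 30.4. It rests on 53 control reads in all, and the 95% interval for counting error alone runs from 23 to 41. In NSL3 RNAi the log2FC of *phm* was 1.79 (SE 0.33, adjusted p = 0.0023), a ratio of 3.77. In NSL2 RNAi it was 1.02 (SE 0.37, adjusted p = 0.0648) and was not called, although the groups did not overlap.

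*shd* (shade), whose enzyme converts ecdysone into the active hormone, had 8.46, 7.25 and 22.1 normalized reads in the control. It had 275, 314 and 193 in NSL1, 34.3, 76.0 and 35.0 in NSL2, and 53.8, 37.5 and 90.1 in NSL3 ovaries. No knockdown library overlapped the control, whose replicate 3 was the highest of its group for *shd* as for eggshell and yolk markers. The log2FC of *shd* was 4.34 (SE 0.39, adjusted p = 6.85e-06) in NSL1, 2.01 (SE 0.48, adjusted p = 0.0176) in NSL2 and 2.21 (SE 0.50, adjusted p = 0.0049) in NSL3 ovaries. The control sum was 49 reads, so that the ratio of 19.8 in NSL1 RNAi has a counting interval of 14.8 to 27.0. The NSL2 call of *shd* was lost without *white* replicate 1 (adjusted p = 0.0595), *white* replicate 2 (0.0645) or NSL2 replicate 2 (0.0537).

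*sad* (shadow), which acts between these enzymes, stood at 25.4, 26.8 and 38.7 normalized reads in the control, 164, 159 and 165 in NSL1, 83.5, 133 and 74.5 in NSL2, and 51.1, 49.6 and 72.3 in NSL3 ovaries. The NSL1 libraries lay within a narrow band, and all 3 knockdowns were above the control in every library. The log2FC of *sad* was 2.34 (SE 0.21, adjusted p = 5.40e-06) in NSL1 and 1.70 (SE 0.28, adjusted p = 0.0040) in NSL2 RNAi. In NSL3 RNAi it was 0.87 (SE 0.28, adjusted p = 0.0233), below the fold threshold. Without *white* replicate 3 that value was 1.04 and *sad* was called there as well. *sad* overlaps *CG6962*, whose log2FC was -1.20, -0.26 and -1.30.

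*dib* (disembodied), the enzyme that follows phantom in the chain, behaved otherwise. Its level was 26.9, 31.2 and 33.2 normalized reads in the control, 31.1, 33.6 and 62.4 in NSL1, 50.3, 104 and 66.1 in NSL2, and 12.1, 23.1 and 32.5 in NSL3 ovaries. Only the NSL2 libraries were clear of the control, and the NSL1 and NSL3 groups overlapped it. *dib* was called in NSL2 RNAi only, where it rose with a log2FC of 1.26 (SE 0.28, adjusted p = 0.0127). It was 0.33 (95% interval -0.36 to 1.02) in NSL1 and -0.55 (-1.49 to 0.39) in NSL3 ovaries, where it rests on 52 reads. *dib* overlaps *wit* in the annotation, whose log2FC was 2.05, -0.66 and 1.81 in the 3 knockdowns. The NSL2 replicate 2 library had the highest level of *phm*, *shd*, *sad* and *dib* in its group, and without it the log2FC of *dib* in NSL2 RNAi was 0.98 and the call was lost. That library also had the highest eggshell and yolk sum, 416572 normalized reads against 207323 and 250938 in the other two NSL2 libraries. The part of the eggshell-stage and body-tissue markers in the levels of these 4 enzymes was not tested.

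**Figure D3:**
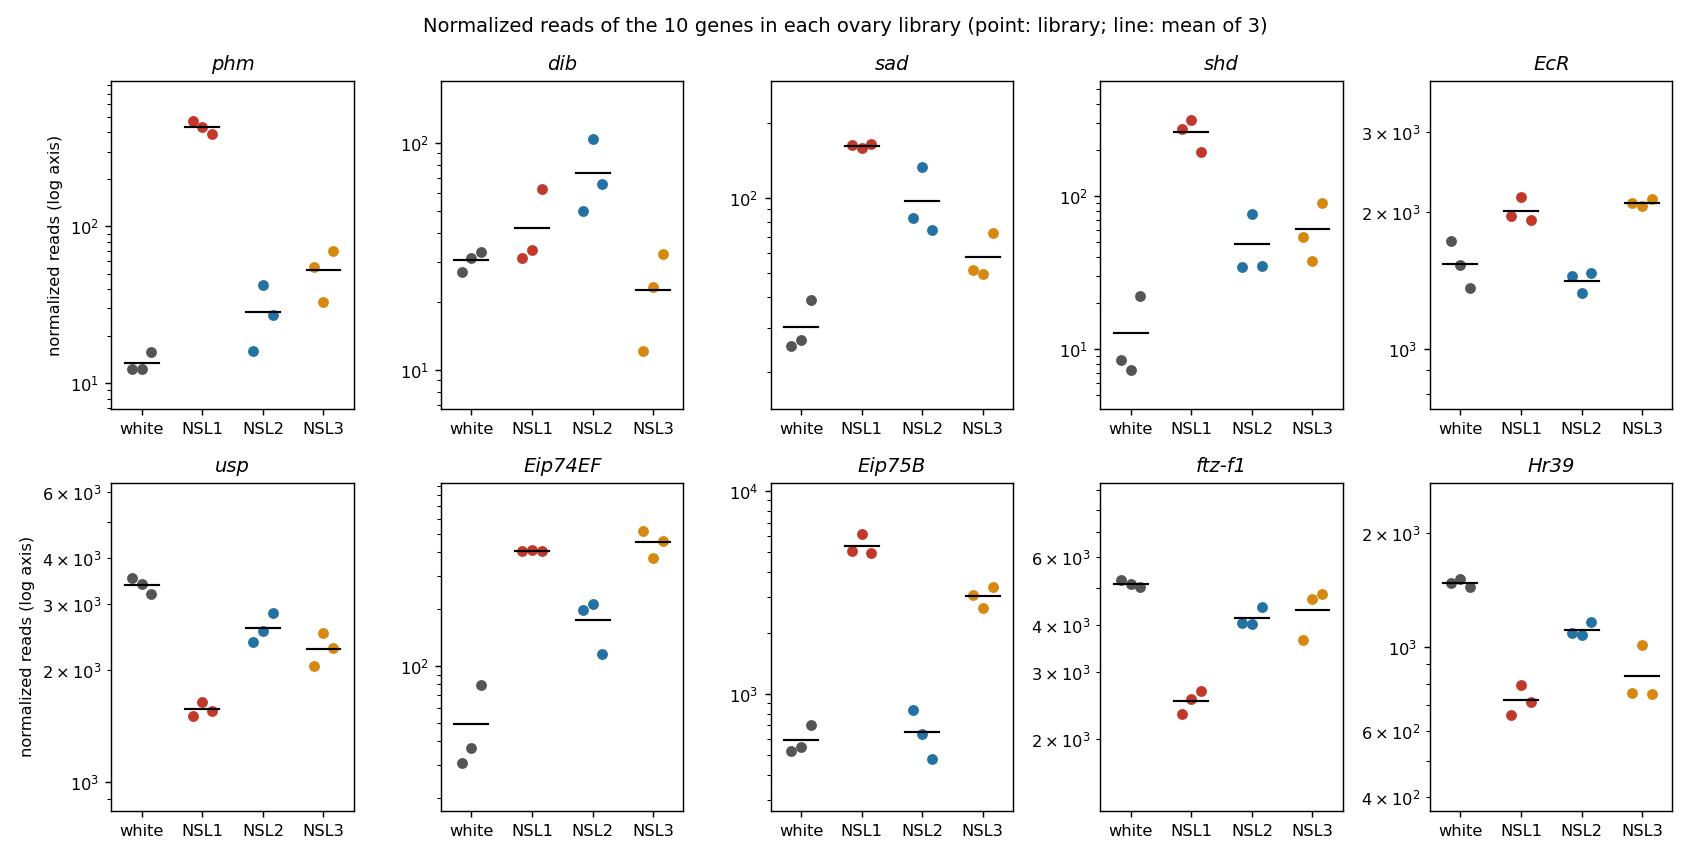
Normalized reads of each of the 10 genes (log axis, scaled per panel) in the 12 libraries by RNAi group, with 1 point per library and a line at the mean of 3. *phm* lies at 389 to 469 in NSL1 RNAi against 12.3 to 15.8 in *white* RNAi, while *EcR* stays between 1331 and 2153 in every library.

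For the receptor genes the log2FC stayed between -1.18 and 0.41. *EcR*, the hormone-binding subunit, had 1724, 1528 and 1361 normalized reads in the control, 1956, 2153 and 1917 in NSL1, 1448, 1331 and 1468 in NSL2, and 2090, 2059 and 2138 in NSL3 ovaries. The NSL1 and NSL3 libraries were all above the control by a small margin, and the NSL2 group overlapped it. The log2FC of *EcR* was 0.32 (SE 0.09, adjusted p = 0.0105) in NSL1, -0.04 (SE 0.09, adjusted p = 0.744) in NSL2 and 0.41 (SE 0.12, adjusted p = 0.0128) in NSL3 ovaries, and none passed the fold threshold.

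*usp*, the partner of *EcR* and the fly homolog of the retinoid X receptors, was lower in each knockdown than in any control library. Its levels were 3534, 3394 and 3187 normalized reads in *white*, 1503, 1643 and 1549 in NSL1, 2372, 2536 and 2850 in NSL2, and 2043, 2508 and 2287 in NSL3 ovaries. In NSL1 RNAi *usp* fell, with a log2FC of -1.18 (SE 0.06, adjusted p = 2.46e-07) and a ratio of means of 0.442. The log2FC was -0.31 (SE 0.07, adjusted p = 0.0158) in NSL2 and -0.61 (SE 0.12, adjusted p = 0.0030) in NSL3 ovaries, both short of the fold threshold. *usp* overlaps *Actn* and *CG4313*, whose log2FC was 0.26, -0.21 and 0.50 for *Actn* and 2.58, -0.12 and 3.46 for *CG4313* in NSL1, NSL2 and NSL3. In NSL2 RNAi *Actn*, like *usp*, was below the control in every library, at 2462 to 2604 against 3024 to 3146 normalized reads, and the part of shared reads in the level of *usp* was not tested. The reads of *EcR* per read of *usp* within a library were 0.455 ± 0.031 (SD, n = 3) in *white*, 1.28 ± 0.040 in NSL1, 0.550 ± 0.053 in NSL2 and 0.926 ± 0.101 in NSL3 ovaries. This ratio is not corrected for transcript length, so only its change between groups is read, and it does not depend on the scaling of the libraries.

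Both early response genes rose in NSL1 and NSL3 ovaries, and *Eip74EF* in NSL2 RNAi as well. *Eip74EF* encodes a transcription factor of the ETS family. It had 30.8, 37.0 and 79.8 normalized reads in the control, 404, 410 and 405 in NSL1, 198, 212 and 116 in NSL2, and 518, 374 and 461 in NSL3 ovaries. All 9 knockdown libraries were above the control. The log2FC was 3.08 (SE 0.31, adjusted p = 1.33e-05) in NSL1, 1.97 (SE 0.38, adjusted p = 0.0083) in NSL2 and 3.24 (SE 0.35, adjusted p = 2.18e-04) in NSL3 ovaries. These correspond to ratios of means of 7.90, 3.76 and 8.92.

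*Eip75B* encodes a heme-binding nuclear receptor with a role in the survival of egg chambers at mid-oogenesis. Its levels were 524, 548 and 706 normalized reads in the control and 835, 637 and 477 in NSL2 RNAi, which overlapped it. They were 5086, 6109 and 4962 in NSL1 and 3060, 2645 and 3371 in NSL3 ovaries, so that every library of these groups was above every control library. *Eip75B* rose in NSL1 RNAi with a log2FC of 3.12 (SE 0.12, adjusted p = 4.86e-08) and in NSL3 ovaries with 2.31 (SE 0.14, adjusted p = 1.47e-05). In NSL2 RNAi the value was 0.18 (95% interval -0.30 to 0.67, adjusted p = 0.516). The reads of *Eip75B* per read of *Eip74EF* were 13.6 ± 4.23 (SD, n = 3) in *white*, 13.2 ± 1.43 in NSL1, 3.78 ± 0.677 in NSL2 and 6.77 ± 0.753 in NSL3 ovaries. Follicle cell and muscle markers were highest in the same groups as *Eip75B*, and their part in its level was not tested.

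*ftz-f1* and *Hr39*, related nuclear receptors of which the former makes tissues competent for later hormone pulses, were lower in every knockdown library than in any control library. *ftz-f1* had 5230, 5103 and 5025 normalized reads in *white*, 2339, 2558 and 2679 in NSL1, 4049, 4002 and 4457 in NSL2, and 3636, 4669 and 4817 in NSL3 ovaries. The NSL1 libraries were the lowest. *ftz-f1* fell in NSL1 RNAi, with a log2FC of -1.09 (SE 0.06, adjusted p = 2.81e-07). The value was -0.22 (SE 0.06, adjusted p = 0.0190) in NSL2 and -0.28 (SE 0.13, adjusted p = 0.0895) in NSL3 ovaries.

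*Hr39* had 1473, 1513 and 1438 normalized reads in *white*, 662, 794 and 717 in NSL1, 1090, 1079 and 1164 in NSL2, and 753, 1013 and 750 in NSL3 ovaries. The NSL3 group spread the most, and NSL3 replicate 2, the library with the highest germline sum of its group, was the nearest of the NSL3 libraries. The log2FC of *Hr39* was -1.10 (SE 0.08, adjusted p = 1.39e-06) in NSL1, where it fell, and -0.34 (SE 0.05, adjusted p = 0.0040) in NSL2. In NSL3 RNAi it was -0.87 (SE 0.16, adjusted p = 0.0022), and without NSL3 replicate 2 it was -1.04 and *Hr39* was called. The NSL1 calls of both genes lie close to the fold threshold. With size factors from annotated genes only, which shift the all-gene median of log2FC (-0.13) to 0.03, *ftz-f1* stood at -0.95 and *Hr39* at -0.95, and 1 gene of the 10 fell in place of 3 while 5 rose as before. The same scaling moved the NSL3 median from -0.12 to -0.01 and changed no NSL3 call of the 10 genes. Germline markers were lowest in NSL1 and NSL3 RNAi, and their part in the lower levels of *usp*, *ftz-f1* and *Hr39* was not tested.

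The knockdowns were compared with each other over the 12 libraries on the common scale, where the shared control drops out. Between NSL1 and NSL2 RNAi, 4 of the 10 genes were called higher in NSL1 and 0 lower, where 29.2% and 13.2% of all genes were. *phm* differed by 3.96 (SE 0.34, adjusted p = 1.48e-06), *Eip75B* by 3.08 (SE 0.19), *shd* by 2.48 (SE 0.46) and *Eip74EF* by 1.26 (SE 0.32) on the log2 scale. Without NSL2 replicate 3 the *Eip74EF* difference was 0.98 and no longer called. *usp* was lower in NSL1 than in NSL2 RNAi by less than the fold threshold, at -0.72 (95% interval -0.92 to -0.52). So were *ftz-f1* (-0.72) and *Hr39* (-0.62), while *EcR* (0.50) and *sad* (0.78) were higher by less than it. All 5 had a limma adjusted p under 0.05.

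Between NSL3 and NSL2 RNAi 3 genes were called, 2 higher in NSL3 and 1 lower, against 27.6% and 8.9% of all genes. *Eip75B* was higher by 2.25 (SE 0.19, adjusted p = 1.01e-06) and *Eip74EF* by 1.39 (SE 0.32, adjusted p = 0.0020), and *dib* was lower, at -1.70 (SE 0.39, adjusted p = 0.0021). Short of the fold threshold, but with limma adjusted p under 0.05, *EcR* (0.57) and *phm* (0.89) were higher in NSL3 RNAi. In the same way *sad* (-0.72) and *Hr39* (-0.42) were lower. *shd* did not differ beyond the error, with a difference of 0.33 and a 95% interval of -0.68 to 1.33.

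The atrophied ovaries of NSL1 and NSL3 RNAi differed from each other in 3 enzymes. *phm* was higher in NSL1 RNAi by 3.07 (SE 0.34, adjusted p = 1.15e-04), *shd* by 2.15 (SE 0.46, adjusted p = 0.0043) and *sad* by 1.50 (SE 0.26, adjusted p = 0.0014), and 0 genes were called lower. Of all genes, 5.81% were higher and 5.28% lower. The other genes were not called. *Eip74EF* differed by -0.14 (95% interval -0.84 to 0.57), *EcR* by -0.06 (-0.26 to 0.13) and *Hr39* by -0.20 (-0.45 to 0.05). Short of the fold threshold, *Eip75B* was higher in NSL1 RNAi by 0.83 (0.42 to 1.24, limma adjusted p = 0.0058). *dib* missed both the fold and the p threshold, at 0.91 (0.05 to 1.77 before adjustment, limma adjusted p = 0.0861). *ftz-f1* was lower in NSL1 RNAi by less than the fold threshold, at -0.78 (-1.01 to -0.56), as was *usp*, at -0.54 (-0.74 to -0.33).

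**Figure D4:**
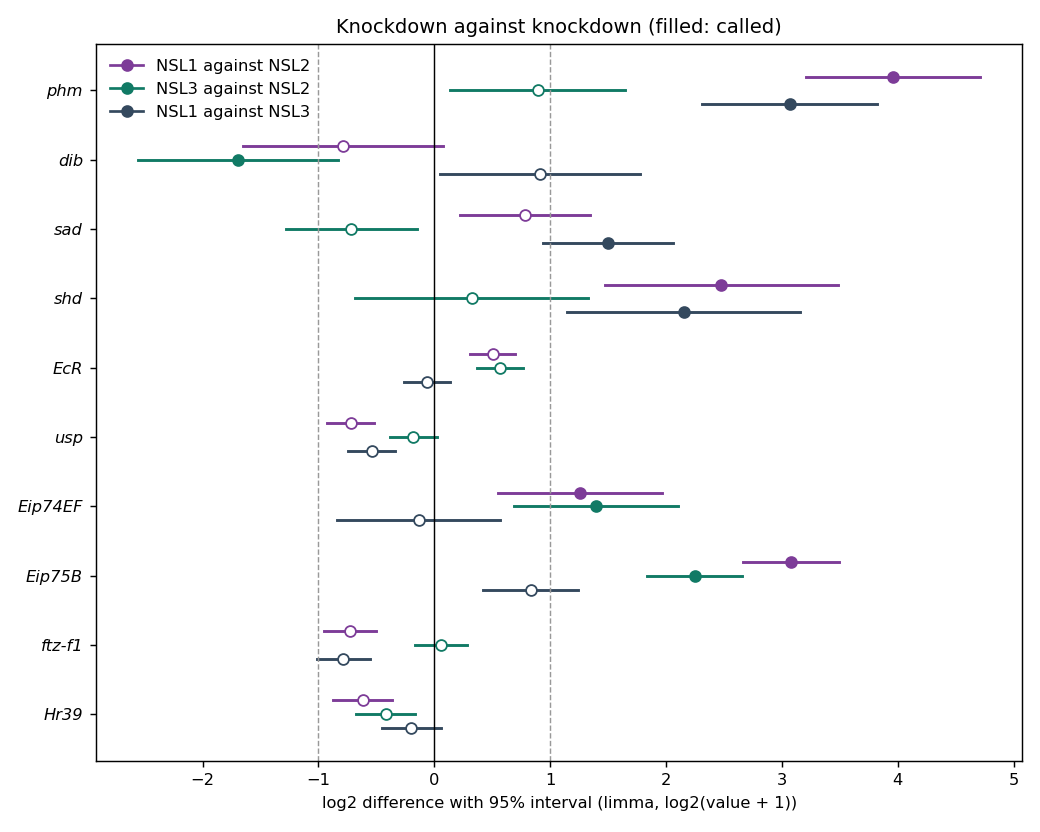
Log2 difference between pairs of knockdowns for each gene (limma over 12 libraries) with its 95% interval, with filled points for called genes and dashed lines at the fold threshold. *phm* and *shd* are filled for NSL1 against both other knockdowns, at 2.15 to 3.96, and *dib* is filled on the left for NSL3 against NSL2 RNAi, at -1.70.

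Another 41 genes of the pathway were read from 4 lists. In NSL1 RNAi 36 of them were tested, of which 21 rose and 2 fell. In NSL2 RNAi 33 were tested, 7 with a rise and 0 with a fall, and in NSL3 ovaries 34 were tested, 15 with a rise and 2 with a fall, beside the shares of all genes given above. Their median log2FC was 2.28, 0.17 and 0.52.

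Of the genes for the rest of hormone synthesis and for sterol supply, 5 of 10 tested rose in NSL1, 2 of 9 in NSL2 and 1 of 9 in NSL3 ovaries, and 0 fell. Of all genes tested, 31.8%, 8.46% and 29.6% rose and 20.4%, 1.17% and 14.6% fell. *spo* (spook) and *sro* (shroud), enzymes of the early part of the chain, rose in NSL1 and NSL2 RNAi. *spo* had a level of 66.2, 73.2 and 95.6 normalized reads in *white*, 366, 443 and 364 in NSL1, 268, 633 and 276 in NSL2, and 91.5, 67.2 and 79.7 in NSL3 ovaries. The NSL3 libraries thus lay within the range of the control, and the log2FC of *spo* was 2.25 (SE 0.17), 2.28 (SE 0.33) and -0.01 (SE 0.23) in NSL1, NSL2 and NSL3 RNAi. For *sro* it was 1.87 (SE 0.20), 1.53 (SE 0.36) and -0.46 (SE 0.30). Both were higher in NSL1 than in NSL3 ovaries, by 2.29 for *spo* (adjusted p = 2.67e-04) and 2.36 for *sro* (adjusted p = 4.38e-04), as *sad*, *shd* and *phm* were. Both were also lower in NSL3 than in NSL2 RNAi, at -2.18 and -1.88, as *dib* was. *Npc1a*, which releases sterols from endosomes and had the highest mean read number of the list, rose in NSL1 (2.79, SE 0.10) and NSL3 RNAi (2.36, SE 0.26) and stood at 0.49 in NSL2 RNAi. *nvd* (neverland), which acts on dietary cholesterol, and *spok*, a paralog of *spo*, rose in NSL1 RNAi and are named after their values were seen. *spok* was at 0 to 0.79 normalized reads in the control and at 48.4 to 85.9 in NSL1 RNAi. It passed the minimum mean through the NSL1 libraries alone, so a rise was the only call open to it. In NSL2 and NSL3 RNAi, at 7.50 to 22.1 and 2.20 to 12.1, it was above the control but not tested.

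**Figure D5:**
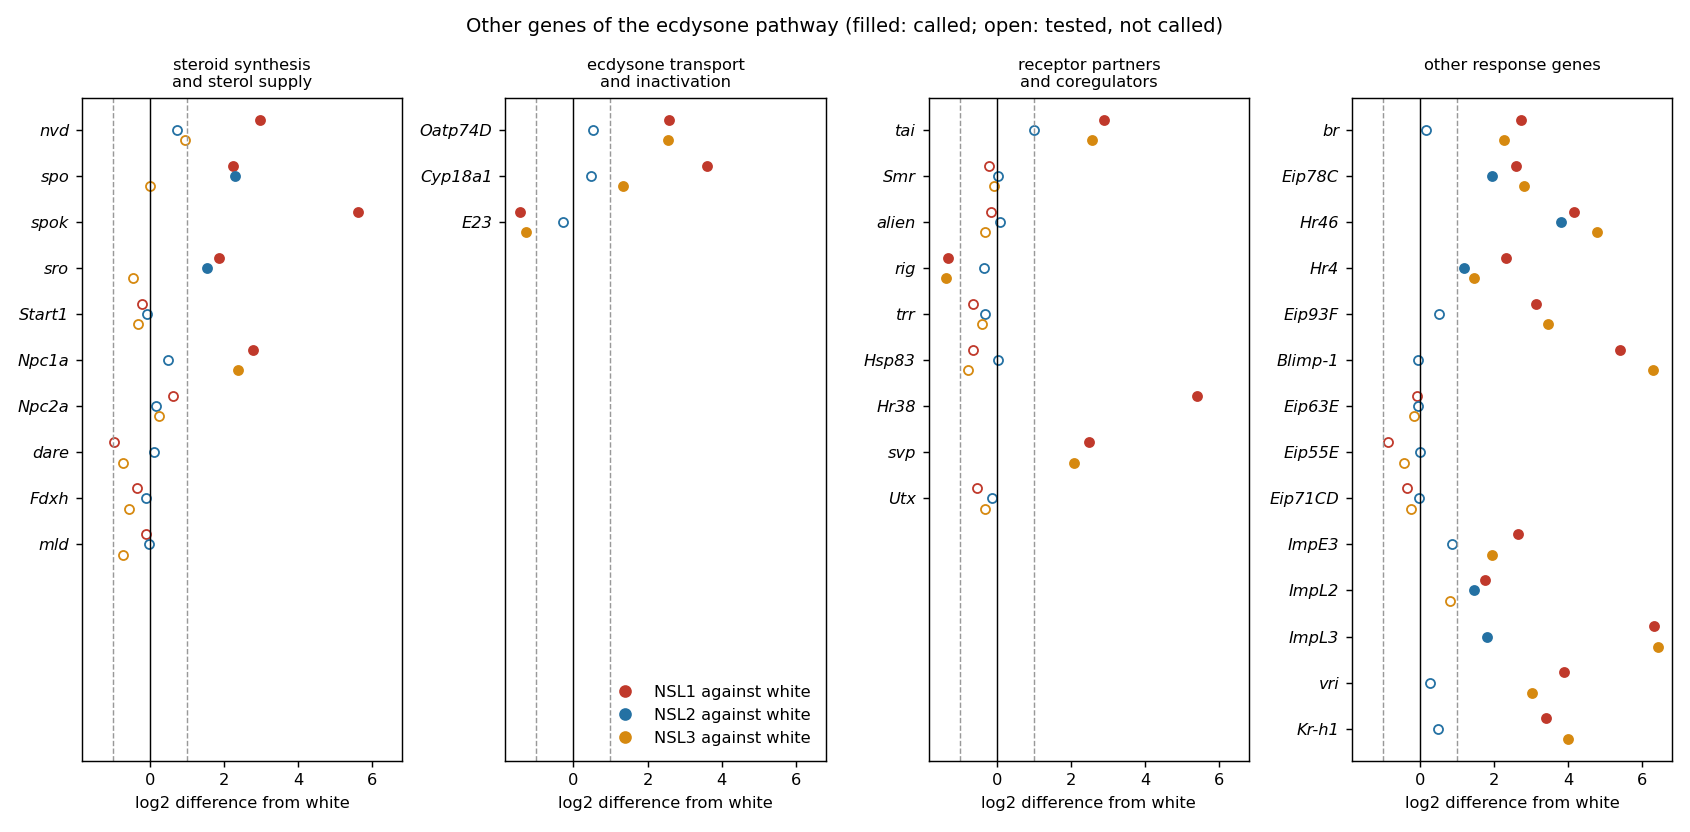
Log2 difference from *white* RNAi of the tested genes of 4 further pathway lists, 1 row per gene and 1 colour per knockdown, filled where called. In the rightmost panel 11 of 14 response genes are filled for NSL1 RNAi, 5 for NSL2 and 10 for NSL3 RNAi, all to the right.

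The 3 genes of hormone import and removal were called in both atrophied groups and 0 of them in NSL2 RNAi. Of all genes tested, 31.8% rose and 20.4% fell in NSL1, 29.6% and 14.6% in NSL3, and 8.46% and 1.17% in NSL2 RNAi. *Oatp74D*, the importer that brings ecdysone into cells, rose with a log2FC of 2.58 (SE 0.11) in NSL1 and 2.55 (SE 0.21) in NSL3 ovaries. In NSL2 RNAi it was 0.54 (SE 0.12, limma adjusted p = 0.0122), short of the fold threshold only. *Cyp18a1*, an enzyme that inactivates the hormone, rose by 3.60 (SE 0.21) and 1.34 (SE 0.27) on the log2 scale, and was 0.48 in NSL2 RNAi. *Cyp18a1* was higher in NSL1 than in NSL3 ovaries by 2.29 (adjusted p = 9.64e-05). *E23*, a transporter that removes the hormone from cells, fell, at -1.45 (SE 0.08) and -1.27 (SE 0.29), and was -0.28 in NSL2 RNAi.

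Among receptor partners and coregulators, 3 rose and 1 fell of 9 tested in NSL1, 0 were called of 7 in NSL2, and 2 rose and 1 fell of 8 in NSL3 ovaries. The shares of all genes tested that rose were 31.8%, 8.46% and 29.6%, and those that fell were 20.4%, 1.17% and 14.6%. *tai* (taiman), a coactivator of the receptor, had log2FC values of 2.90 (SE 0.10), 1.00 (SE 0.12) and 2.58 (SE 0.17), with the NSL2 value just under the fold threshold (limma adjusted p = 0.0012). *rig* (rigor mortis), a cofactor of ecdysone signalling, fell in NSL1 (-1.33, SE 0.05) and NSL3 RNAi (-1.38, SE 0.23) and was -0.35 in NSL2 RNAi (limma adjusted p = 0.0181). *svp*, a nuclear receptor that can bind Ultraspiracle, rose in NSL1 and NSL3 RNAi (2.50 and 2.08), as did *Hr38*, another partner of Ultraspiracle, in NSL1 RNAi, which is named after its values were seen. The chaperone gene *Hsp83* had the highest mean read number of the list and was not called in any knockdown (-0.65, 0.04 and -0.77).

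Of the other response genes, 11 of 14 tested rose in NSL1, 5 of 14 in NSL2 and 10 of 14 in NSL3 ovaries, and 0 fell, beside 31.8%, 8.46% and 29.6% of all genes that rose. The early-late nuclear receptor genes *Hr46*, *Eip78C* and *Hr4* rose in all 3 knockdowns, as *Eip74EF* did. *Hr46* had 4.62, 5.07 and 7.90 normalized reads in *white*, 143, 115 and 110 in NSL1, 94.2, 145 and 46.4 in NSL2, and 194, 185 and 183 in NSL3 ovaries. Its log2FC was 4.14 (SE 0.28), 3.80 (SE 0.43) and 4.77 (SE 0.27). *Eip78C* had values of 2.59 (SE 0.30), 1.95 (SE 0.30) and 2.82 (SE 0.39), and *Hr4* had 2.31 (SE 0.28), 1.18 (SE 0.34) and 1.47 (SE 0.47). *ImpL3*, which encodes lactate dehydrogenase, rose in all 3 as well, at 6.31 (SE 0.33), 1.81 (SE 0.57) and 6.42 (SE 0.34). Its NSL2 call (limma adjusted p = 0.0406) rests on few reads. The NSL2 levels were 8.57, 27.0 and 7.60 normalized reads against 2.31, 5.07 and 2.37 in *white*, with replicate 2 the highest.

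A further set of response genes rose in NSL1 and NSL3 RNAi and was not called in NSL2 RNAi, as was the case for *Eip75B*. *br* (broad), a family of zinc finger transcription factors, had a log2FC of 2.73 (SE 0.22), 0.15 (SE 0.31) and 2.27 (SE 0.29) in NSL1, NSL2 and NSL3 RNAi. *Eip93F*, a transcription factor of the response linked to the death of larval tissues, had 3.14 (SE 0.13), 0.52 (SE 0.13) and 3.46 (SE 0.20). *Blimp-1*, a repressor of *ftz-f1* in the prepupa, had 5.40 (SE 0.24), -0.07 (SE 0.49) and 6.29 (SE 0.30). *ImpE3*, *vri* and *Kr-h1* had the same calls, with log2FC values of 2.64, 3.89 and 3.39 in NSL1, 0.87, 0.25 and 0.48 in NSL2, and 1.95, 3.01 and 4.00 in NSL3 ovaries. Each of these 6 genes was also higher in NSL1 than in NSL2 and in NSL3 than in NSL2 RNAi, by 1.19 to 6.46 on the log2 scale. *ImpL2*, which encodes a protein that binds insulin-like peptides, rose in NSL1 (1.74, SE 0.18) and NSL2 RNAi (1.46, SE 0.22) and was 0.79 (SE 0.41) in NSL3 ovaries. *Eip55E*, which had the highest mean read number of the list, was not called in any knockdown (-0.87, SE 0.06, in NSL1, -0.01, SE 0.08, in NSL2 and -0.44, SE 0.12, in NSL3). The muscle, hemocyte and fat body sums were also highest in NSL1 and NSL3 RNAi, and their part in these counts was not tested.

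For each of the 10 genes the 2 genes of most similar pattern were found among 7855 or 7856 genes with a mean of at least 50, by the root-mean-square difference of mean-centred log2 levels over the 12 libraries. The likeness is a description, and the libraries share their scaling and their tissue makeup. The receptor genes, *ftz-f1* and *Hr39* had the closest neighbours. *usp* was matched by *GlcT-1* at 0.056 log2 units and *da* at 0.063, *Hr39* by *Pez* at 0.069 and *wmd* at 0.070, *EcR* by *Akap200* at 0.095 and *sgg* at 0.096, and *ftz-f1* by *dl* at 0.104 and *CG6276* at 0.105. Of the response genes, *Eip75B* was nearest to *Socs36E* at 0.204 and to *br* at 0.228, and *Eip74EF* to *CG13299* at 0.237 and *Gef64C* at 0.246. The enzymes, which had the fewest reads in the control, had looser matches. The part of counting noise in these distances was not tested. *sad* was nearest to *Cad99C*, a cadherin of follicle cell microvilli that is on the follicle cell marker list, at 0.254, and to *CG5326* at 0.267. *phm* was nearest to the innexin gene *Inx7* at 0.279 and to *Lsd-1*, a lipid droplet protein gene, at 0.387. *dib* was nearest to *CG43672* at 0.319 and *CG17119* at 0.405, and *shd* to *Orct2* at 0.406 and *CG3280* at 0.468. Within the 10 genes, *usp* and *ftz-f1* were nearest to each other at 0.143, and *phm* and *shd* at 0.632. *sad* lay 0.858 from *shd*, the nearest of the other 9 genes. A nearest gene out of 9 cannot be set against a nearest gene out of 7855.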

How the data were processed

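RNA-seq values came from 12 ovary libraries, 3 each of *white*, NSL1, NSL2 and NSL3 RNAi. Per the study's methods, stranded libraries of RiboZero-treated total RNA were filtered for ribosomal reads (bowtie2) and aligned to dm3 with STAR in piPipes, then counted (featureCounts or eXpress) and scaled with DESeq2. Versions and the strand used in counting are not given in the sources used here. The values used, a signal the authors deposited, are reads per gene, repeat or cluster divided by 1 size factor per library, in 3 tables that share the *white* RNAi reads. Whole reads were recovered for 100% of values (tolerance 1e-06), and the study names ERCC scaling while the tables hold 0 ERCC rows. Columns of the authors' own comparison (mean, log2 fold change, its error, test statistic and p-values) were not used, and 0 columns of library values went unused.

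Each table was tested with limma-trend 3.58.1 (R 4.3.3) on log2(value + 1) where the mean reached 10, over genes, summed transposon families, repeats and clusters together. On this scale a fold change understates the change of low genes. Pairs of knockdowns were tested over 12 libraries on median-of-ratios size factors computed anew, and levels are printed on that scale, which shifts the 10 genes' log2FC by 0.057 to 0.070 (NSL1), -0.088 to -0.074 (NSL2) and 0.038 to 0.041 (NSL3). Intervals of ratios cover counting error only, at 95%. Alternatives were the quasi-likelihood test of edgeR 4.0.16 and the test of DESeq2 1.42.0, both on recovered reads, a pseudocount of 0.5 or 5, dropping the filter or raising it to 50, TMM and gene-only scaling, a replicate block, and each library left out. Figures were drawn with matplotlib 3.10.9.

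On simulated data for NSL1 RNAi (7743 genes) limma called 98 of 100 genes with a 3-fold and 98 of 100 with an 8-fold change, for NSL2 RNAi (7793 genes) 98 and 100, and for NSL3 RNAi (7687 genes) 85 and 97. False calls numbered 2 of 7543, 2 of 7593 and 1 of 7487 unchanged genes. Only 100 genes per fold were changed there, and the size factors that set the reads also scaled them. The simulation thus does not test the scaling or the tissue makeup, and its false-call counts do not carry over to these data.

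The members and lists were chosen with earlier results of these data known. The text names all 10 genes, the targeted genes, genes of the pathway lists called in at least 2 comparisons or with the highest mean of their list, and the 2 genes nearest in pattern. The rule as fixed also covers genes of the marker lists, which are given here as counts and sums only. List names matched 102 of 102 through the Release 6 annotation of RefSeq, which was used for names and overlaps only, since it is not the build of the files. The study describes replicates as separate crosses. The labels number replicate 1 only, and replicates 2 and 3 were read from column names. By their names the control columns match the nonvirgin control. The study names a virgin control for the NSL1 and NSL3 groups, which was not analysed here.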

Additional observations from a re-analysis of the deposited data

How the results depend on the processing

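The members called in NSL2 RNAi, 4 of 10, ranged from 2 to 5 when 1 library was left out, with 2 without NSL2 replicate 2 and 5 without NSL2 replicate 1, where *phm* was called at 1.36 (adjusted p = 0.0215). edgeR also called *phm* there, at 1.21 (adjusted p = 0.0470). Without *white* replicate 1 or 2 or NSL2 replicate 2 the log2FC of *shd* in NSL2 RNAi was 1.83, 1.72 and 1.63. A minimum mean of 50 left 2 members called of 6 tested in NSL3 RNAi in place of 4 of 10, and 478 genes called in NSL2 RNAi in place of 775, by its own construction of fewer genes tested. The 8 members called in NSL1 RNAi became 6, with 5 higher and 1 lower, under gene-only scaling and under DESeq2, where *ftz-f1* and *Hr39* stood at -0.93 and -0.93. In NSL3 RNAi DESeq2 called *sad* at 1.03. Between knockdowns, leaving out 1 library added *sad* (1.03 without NSL2 replicate 2) and *dib* (-1.09 without NSL1 replicate 3) for NSL1 against NSL2, *phm* for NSL3 against NSL2 (1.22 without NSL2 replicate 2 and 1.19 without NSL3 replicate 2), and *dib* for NSL1 against NSL3 RNAi (1.22 without NSL3 replicate 3). Of the single-gene values under all alternatives, 931 stayed as they were, either called or not called. A call was lost by 9 and gained by 10, and 0 called values changed sign. The common scale over 12 libraries was added after seeing the data. No knockdown had same-number correlations above 0.1 in all 3 pairs (the lowest and highest were -0.442 and 0.235). With 3 pairs per knockdown these values cannot exclude a pairing of libraries with the same replicate number. A fit with the replicate block gave 8, 4 and 4 members called in NSL1, NSL2 and NSL3 RNAi, the counts without it. Depth limits *phm*, *shd*, *sad* and *dib* most, with 53, 49, 119 and 120 reads summed over the control.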

Other observations

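Some of the 10 genes overlap others in the Release 6 annotation, and the strand used in counting is not given in the sources used here, so reads of overlapping genes cannot be told apart with certainty. *dib* overlaps *wit*, a receptor gene of the BMP pathway, whose log2FC was 2.05 (SE 0.12) in NSL1, -0.66 (SE 0.15) in NSL2 and 1.81 (SE 0.22) in NSL3 ovaries, where *dib* had 0.33, 1.26 and -0.55. *sad* overlaps *CG6962*, which fell in NSL1 (-1.20) and NSL3 RNAi (-1.30) and was -0.26 in NSL2 RNAi. *usp* overlaps *Actn* (0.26, -0.21 and 0.50) and *CG4313*, which rose in NSL1 (2.58) and NSL3 RNAi (3.46). *phm*, *shd* and *Eip74EF* overlap 0 annotated genes.

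The enzymes also changed relative to each other within a library. The reads of *phm* per read of *dib* were 0.443 ± 0.042 (SD, n = 3) in *white*, 11.4 ± 4.60 in NSL1, 0.381 ± 0.053 in NSL2 and 2.71 ± 1.64 in NSL3 ovaries. The reads of *shd* per read of *sad* were 0.392 ± 0.159, 1.61 ± 0.407, 0.483 ± 0.081 and 1.02 ± 0.247. In NSL2 RNAi, where *sad* and *dib* rose, both ratios overlapped those of the control, 0.319 to 0.414 against 0.395 to 0.476 and 0.410 to 0.571 against 0.270 to 0.571. *ftz-f1* per read of *Hr39* was 3.47 ± 0.091 in *white*, 3.50 ± 0.260 in NSL1, 3.75 ± 0.068 in NSL2 and 5.29 ± 0.991 in NSL3 ovaries. These ratios do not depend on the scaling of the libraries and are not corrected for transcript length.

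The transcript of *white* itself was at 154 to 246 normalized reads in *white* RNAi and at 1205 to 2164 in the 9 knockdown libraries, and the groups did not overlap.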
